A study of Caenorhabditis elegans with 12 samples.

Results

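21ur.type2-1 is 1 of the 6280 entries that the deposited tables class as type II piRNAs of Caenorhabditis elegans. It was chosen by its level in these libraries, as the most abundant type II entry, and was set against the sum of the other type II entries. It has 2 of the 9808 type II rows: a piRNA row, which holds reads of the mature small RNA, and a csRNA row, which holds reads that start just upstream of it and stand for its precursor. The comparison sum held 5611 other piRNA rows and 4194 other csRNA rows. Its rank and its share were selected on and are therefore given as a description with no test.

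Small RNAs were sequenced from whole adults in 12 libraries of 7 groups. In the depletion experiment, animals carrying GFP::tev::aid::attf-6 on chromosome I and the transgene wrdSi51 on chromosome II (ATTF-6 depleted) were compared with animals carrying wrdSi51 alone (auxin control). The transgene drives the plant protein TIR1 from the mex-5 promoter, which acts in the germ line, and all these animals were grown at 20 °C and moved to plates with 4 mM auxin as L4 larvae, so that a degron-tagged protein is destroyed where TIR1 is made. In the deletion experiment, strains lacking an ATTF-6 binding site at IV:13709294-13709476 (ΔPeak1) or IV:14387943-14388536 (ΔPeak2) were compared with the parent strain (deletion control). All of these carry attf-6::3xflag on chromosome I and received no auxin. Each group had 2 libraries made with the polyphosphatase PIR-1, which lets RNAs with a 5′ triphosphate be cloned beside those with a monophosphate. The depleted and auxin control animals had 1 further library each, in which phosphatase and pyrophosphatase were used in turn (CIP-TAP) so that mainly RNAs with a 5′ cap could be cloned. The study describes the mature piRNA libraries of the depletion experiment as biological replicates. The labels name no separate cultures for any group, and p-values measure the spread between these libraries.

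Piwi proteins are guided by small RNAs to transcripts with matching sequence, and in the worm germ line PRG-1 does this with piRNAs to silence foreign sequences such as transposons. Its guides start out as capped short RNAs (csRNAs), here read as precursors, and become functional once their ends have been processed. They fall into a pair of classes by where their genes lie. Type I genes crowd together on chromosome IV, whereas the type II class, to which 21ur.type2-1 belongs, is scattered over the chromosomes beside the starts of other genes.

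Every type II entry in the tables is 21 nt long, and all 6280 entries either start with T or end with A. 21ur.type2-1 starts with T and does not end with A, so its letters were read as those of the RNA itself. It has 12 T, 6 G, 2 A and 1 C, with a run of 6 T. Among the 2233 entries that likewise start with T and do not end with A the median was 9 T, and 18.7% had at least as many as 21ur.type2-1. A run of T as long as its own was found in 8.24% of them. Its G and C together numbered 7, the same as the median. Its position in the genome was not analysed here.

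A single other type II entry shares a long stretch with it. Letters 6 to 21 of 21ur.type2-1 are letters 1 to 16 of 21ur.type2-78, a shift of 5 nt, while no further entry shares a run of more than 11. In mature form 21ur.type2-78 was rare, with normalised counts of 10.1 and 10.4 in the depleted libraries and 5.73 and 10.8 in the auxin control libraries. Its precursor row held 21 in the depleted CIP-TAP library (80 reads) and 2.58 in the control one (13 reads). Reads are assigned by where they start, so the shift keeps the rows of both entries apart. Whether they lie at the same locus was not tested.

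The type II set also holds an entry named let-7a, which was left out of every sum. Its letters are shown because they give the reason, with the bases that pair with or form the seed (bases 2 to 8) of the let-7 miRNA in capitals.
let-7a entry as deposited: actatacaacctaCTACCTCa
let-7a entry, reverse complement: tGAGGTAGtaggttgtatagt
The reverse complement is the start of let-7, whose gene RefSeq places at X:14743590-14745321 on WBcel235. The counts of this entry were 0.993 to 0.997 times those of let-7-5p in all 10 PIR-1 libraries, so both rows hold nearly the same reads. let-7 is a miRNA that times late development in somatic tissue. The row held 16918 and 19822 normalised counts in the depleted libraries and 14682 and 12123 in the auxin control libraries, more than 21ur.type2-1 in each of them.

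Library depth and markers bear on every value below. Summed counts ran from 15454564 to 31931330 in the PIR-1 libraries, and were 6352629 in the depleted and 11832193 in the control CIP-TAP library. A normalised count is the deposited count divided by 1 constant per library, the denominator, times 1000000. The piRNA row of 21ur.type2-1 rested on 29063 to 61053 reads per PIR-1 library. Of 8 germ line and embryo miRNAs of the miR-35 family that were looked up by name, 7 matched. Their summed normalised count was 10904 and 16155 in the depleted libraries, against 96713 and 99948 in the auxin control libraries. All 7 passed the test described below as lower, as did 54.6% of all features tested. The median log2 fold change of the 7 was -2.63, against -1.39 over all features tested. In the deletion experiment the sums of the 3 groups overlapped, between 145168 and 206491, and none of the 7 passed the test in either strain. Of all features tested there, 0.149% passed in ΔPeak1 and 0.308% in ΔPeak2. Of the 5 somatic miRNAs looked up, 2 matched (miR-228-3p and let-7-5p), and their sum was 16988 and 19897 in the depleted libraries and 12174 and 14752 in the auxin control libraries. Neither passed the test of the depletion experiment, which 67.3% of all features tested passed. From images, the study reported atrophy of the germ line in animals depleted from the L4 stage. In RNA of whole animals, fewer germ cells and less RNA per germ cell cannot be told apart. The part of the lower germ line level in the results below was not tested.

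In mature form 21ur.type2-1 stood above every other type II entry in all 12 libraries once let-7a was left out. Its lead was smallest in the CIP-TAP libraries, at 5.21-fold in the depleted one (812 reads) and 2.55-fold in the control one (212 reads). Among piRNA rows of both types it ranked 1 in the depleted and 15 in the control CIP-TAP library. In the PIR-1 libraries it exceeded the second entry by 36.9- to 53.7-fold. That second entry held between 103 and 274 normalised counts. It also exceeded the most abundant type I piRNA in each PIR-1 library. The strongest type I piRNA held 79.1 and 89.1 in the depleted libraries (21ur-4572 in both), 4046 and 3814 in the auxin control libraries (21ur-3730 in both), and between 5157 and 6978 in the deletion experiment.

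Depletion of ATTF-6 left the mature level of 21ur.type2-1 within the spread of the libraries, while the other type II entries summed to more. The piRNA row held 6446 and 7035 normalised counts in the depleted libraries, against 5150 and 6971 in the auxin control libraries. The groups overlapped, since the lower depleted library lay below the higher control library. Means were 6740 ± 417 in depleted animals and 6061 ± 1288 in controls (SD, n = 2 each). On the log2 scale the fitted change was 0.15, with a library-spread SE of 0.23 (edgeR quasi-likelihood test, adjusted p = 0.555). The difference between any depleted and any control library lay between -0.11 and 0.45 on the log2 scale. Without control replicate 1 the value was -0.049 (adjusted p = 0.923). In the same test 67.3% of the 33715 features tested passed, 12.7% as higher and 54.6% as lower, so 21ur.type2-1 was among the minority that did not.

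The call depends on the scaling. With the denominator, the median feature fell by 1.39 on the log2 scale, and 21ur.type2-1 lay 1.55 above that median. With TMM factors, which centre the libraries on the bulk of features, the median was -0.28 and 21ur.type2-1 changed by 1.29 (adjusted p = 5.32e-12). DESeq2 size factors gave 1.21 (adjusted p = 5.62e-06). Scaled to miRNA reads it was -0.057 (adjusted p = 0.854). A change of scaling shifts nearly all features alike. Its distance from the median feature, 1.54 to 1.58 under all 5 scalings, is therefore no separate check.

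The other type II entries behaved differently as a sum. Without let-7a they summed to 8626 and 9866 normalised counts in the depleted libraries, against 1895 and 2437 in the auxin control libraries. These groups did not overlap, and the mean was 4.27-fold higher after depletion (exact two-sided permutation test, p = 0.333, the smallest that 2 against 2 libraries allow). More of the other entries had a read at all, 3365 and 3397 of 5611 in the depleted libraries and 2502 and 2163 in the auxin control libraries. Of the 1701 other entries that passed the filter on low values, 1350 were called higher and 104 lower, against 12.7% higher and 54.6% lower over all features tested. Of those 1701, 1044 were below the filter in the controls and passed through the depleted libraries. The 657 entries that passed it in the controls, a subset chosen after seeing the data, had 462 called higher and 104 lower, and a median of 2.29 on the log2 scale.

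21ur.type2-1 made up less of the type II total after depletion. Its share was 42.8% and 41.6% in the depleted libraries (95% Wilson intervals 42.4 to 43.1 and 41.3 to 42.0), against 73.1% and 74.1% in the auxin control libraries (72.7 to 73.5 and 73.7 to 74.5). Intervals cover counting error only, as the libraries carry no molecular identifiers to remove PCR copies. The ratio of 21ur.type2-1 to the sum of the others was 0.747 and 0.713 in depleted animals and 2.72 and 2.86 in controls. On the log2 scale the group means of this ratio differed by -1.93, a 3.82-fold lower ratio, with groups that did not overlap. This ratio does not depend on the scaling of the libraries. Against type I piRNAs the order was the reverse. The row equalled 55.7% and 54.6% of the summed type I piRNA in the depleted libraries, against 1.58% and 1.79% in the auxin control libraries. That type I sum was 11562 and 12892 in the depleted libraries and 326582 and 389609 in the auxin control libraries.

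**Figure D1:**
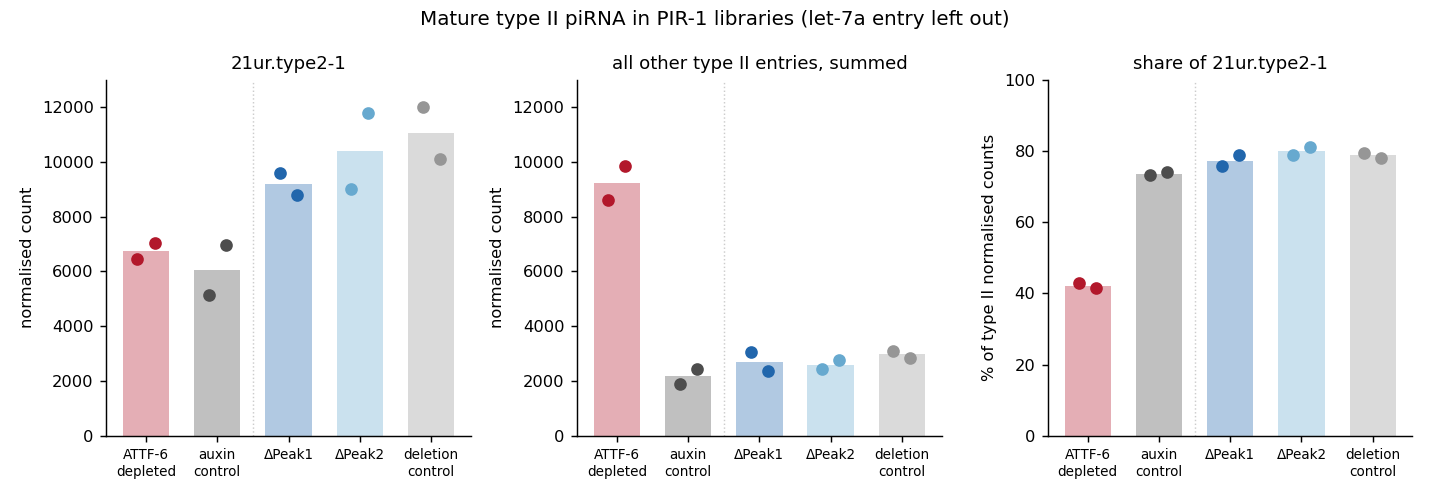
Normalised counts of mature 21ur.type2-1 (left), of all other type II entries summed without let-7a (middle), and the share of 21ur.type2-1 in percent of both together (right), by group of PIR-1 libraries. Points are libraries, bars are means of 2 libraries, and the dotted line separates the experiments. The depleted libraries stand at 42.8% and 41.6% in the right panel, below the 73.1% to 81.0% of the other 8.

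The next most abundant type II entries split in direction. The 10 that followed it in mean level over the PIR-1 libraries all passed the test in the depletion experiment, 6 as lower and 4 as higher. That ranking took in the depleted libraries, so an entry could join the 10 through a high level there. Their split and their median are therefore a description. Over all features tested, 54.6% were called lower and 12.7% higher. The log2 fold changes of the 10 entries had a median of -3.46, against -1.39 over all features tested. The largest of them, 21ur.type2-224, held 0.413 and 0.484 normalised counts in the depleted libraries, at most 2 reads, against 41.4 and 57.1 in the auxin control libraries. The control mean was 73.1-fold above a floor of 3 counts per library, which is a convention and no statistical bound. 21ur.type2-408 was the second type II entry of both auxin control libraries, with 103 and 134 there, and held 1.55 and 1.57 in the depleted libraries (log2 fold change -6.22, library-spread SE 0.19, adjusted p = 1.45e-57). Among the entries that rose, 21ur.type2-4575 held 89.2 and 131 in the depleted libraries and 15.7 and 22.7 in the controls (2.54, SE 0.38, adjusted p = 1.45e-19). 21ur.type2-2 rose less, with 88.2 and 123 in the depleted libraries and 47.0 and 68.3 in the controls (0.88, SE 0.36, adjusted p = 0.00106). The other lower entries were 21ur.type2-33, 21ur.type2-11, 21ur.type2-121 and 21ur.type2-1034, with log2 fold changes between -6.95 and -1.34. For 21ur.type2-1034 at most 2 reads remained per depleted library, and its control mean was 45.1-fold above the same floor. 21ur.type2-4 and 21ur.type2-8795 rose, by 2.13 and 3.08. The 6 type I piRNAs examined singly (21ur-1496, 21ur-3442, 21ur-4606, 21ur-5665, 21ur-1769 and 21ur-2675) were all called lower, as were 54.6% of all features tested. Their log2 fold changes ran from -6.21 to -3.21.

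**Figure D2:**
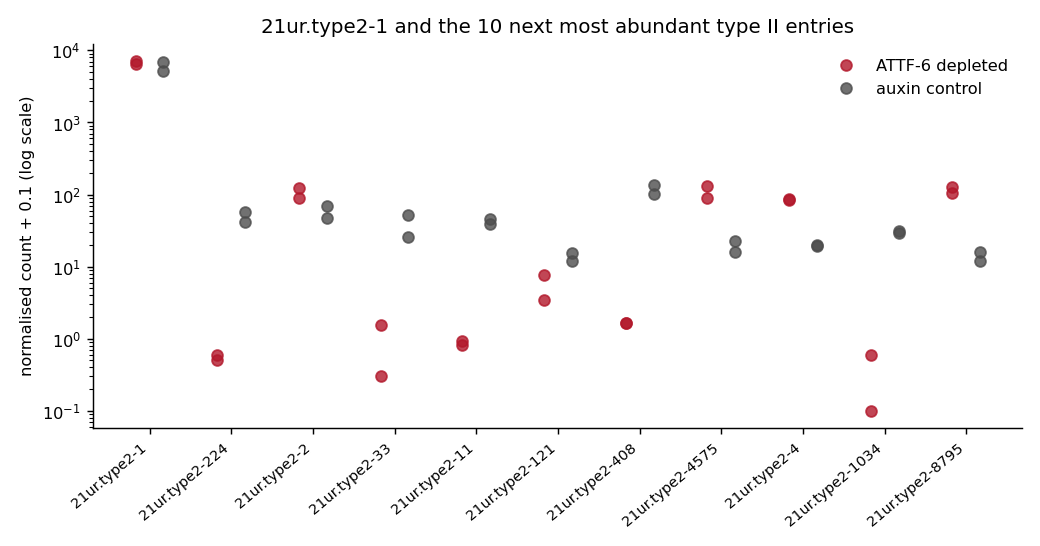
Normalised count plus 0.1 on a log axis for 21ur.type2-1 and the 10 type II entries that follow it in mean level over the PIR-1 libraries, in ATTF-6 depleted and auxin control libraries. Each point is 1 library. Only for 21ur.type2-1 do the points of both groups overlap, at 6446 and 7035 against 5150 and 6971.

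The precursor of 21ur.type2-1 was lower after depletion although its mature form was not. In the CIP-TAP libraries its csRNA row held 3017 normalised counts in the depleted library (11479 reads) and 13457 in the control library (67830 reads). This is 4.46-fold lower, with a 95% exact interval of 4.37 to 4.55 for counting error only. With 1 library per group there is no replicate check and no test. The fold was 3.17 when libraries were scaled to summed counts and 7.55 when they were scaled to miRNA reads. The row was the most abundant csRNA of all classes in both libraries. It exceeded the second, 21ur.type2-5458, by 1.49-fold in the depleted library, and the second of the control library, the type I csRNA 21ur-1222, by 1.41-fold. It took 5.84% of all csRNA normalised counts in the depleted library and 2.36% in the control library, and the type I csRNAs summed to 4205 there and 505516 in the control library.

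The sum of the other type II precursors took its direction from the scaling. It was 44459 in the depleted library and 50466 in the control library, 1.14-fold lower. Scaled to miRNA reads it was 1.92-fold lower and scaled to summed counts 1.24-fold higher, choices added after seeing the data. Per 100 counts of the others, 21ur.type2-1 csRNA had 6.79 in the depleted library and 26.7 in the control library, a 3.93-fold lower ratio that no scaling of the libraries changes. As a share of type II csRNA it made up 6.36% (95% Wilson interval 6.24 to 6.47) and 21.1% (20.9 to 21.2). Among 791 other type II csRNA rows with a mean of at least 10, 35 were over 4-fold lower in the depleted library, or 4.42%, and 33 were lower by at least as much as 21ur.type2-1. Their median log2 difference was -0.074, with 424 lower and 367 higher. Over all csRNA rows at that level, type I included, 75.0% were over 4-fold lower.

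The 5 other type II precursors with the highest mean level were named by rule, and 4 of them were within 1.28-fold of equal in both libraries with the denominator. 21ur.type2-5458 held 2019 in the depleted library and 1775 in the control library, 1.14-fold higher. 21ur.type2-758 held 992 in the depleted library and 1039 in the control library. 21ur.type2-9107 held 810 in the depleted library and 999 in the control library, 1.23-fold lower. 21ur.type2-645 held 582 in the depleted library and 742 in the control library, 1.28-fold lower. The exception was 21ur.type2-2, with 143.5 in the depleted library and 1598 in the control library, 11.1-fold lower (95% exact interval 10.2 to 12.2). Like 21ur.type2-1 it had a lower precursor and a mature form that was not lower. Among the remaining 4, mature 21ur.type2-758 held 123 and 102 in the depleted libraries and 7.89 and 12.4 in the controls (log2 fold change 3.51). Mature 21ur.type2-9107 held 60.3 and 58.3 in the depleted libraries and 2.29 and 2.70 in the controls (4.58), and both rose past the test. The mature rows of 21ur.type2-5458 (16 and 13 reads in the depleted libraries, 0 and 1 in the controls) and 21ur.type2-645 (12 and 19 reads in the depleted libraries, 4 and 0 in the controls) passed the filter on low values only through the depleted libraries, so no fold is given.

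**Figure D3:**
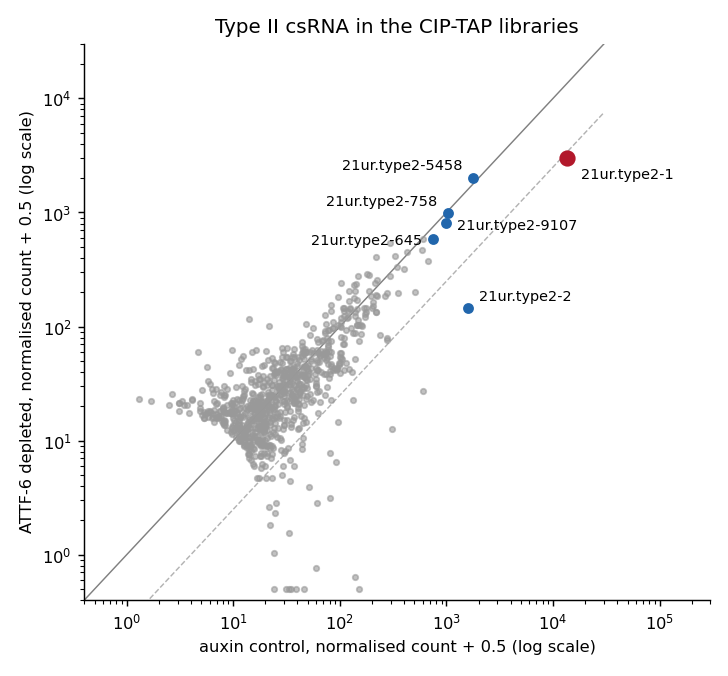
Normalised csRNA count plus 0.5 in the ATTF-6 depleted CIP-TAP library (vertical) against the auxin control one (horizontal), both on log axes, for 792 type II entries with a mean of at least 10. The solid line marks equal values and the dashed line a 4-fold lower value in the depleted library. 21ur.type2-1 (red) lies past the dashed line at 3017 and 13457, and 4 of the 5 labelled others (blue) lie near the solid line.

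Precursor and mature form were set side by side for the 552 type II entries measured in both kinds of library. Of the 551 other than 21ur.type2-1, 288 had a mature form below the filter in the controls and entered through the depleted libraries. Among the other 263, a subset chosen after seeing the data, 230 had a mature form called higher and 6 lower, against 12.7% higher and 54.6% lower over all features tested. In 22 of the 263 the precursor was over 4-fold lower, and of these the mature form was called lower in 6, higher in 6, and in neither direction in 10. Precursor values come from 1 library per group and mature values from 2.

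**Figure D4:**
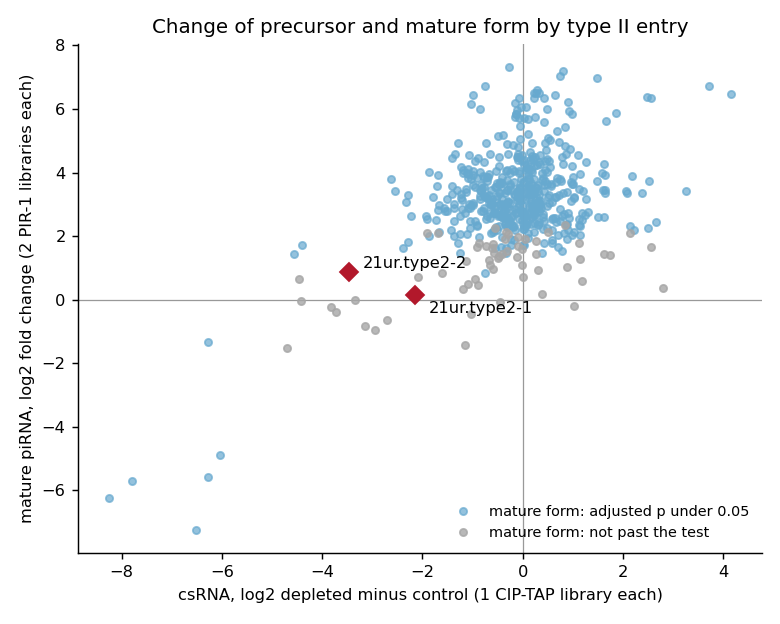
Log2 fold change of the mature piRNA (vertical, 2 depleted against 2 auxin control PIR-1 libraries) against the log2 difference of the csRNA (horizontal, 1 CIP-TAP library each, 0.5 added) for 552 type II entries. Blue points passed the test in mature form and grey points did not. 21ur.type2-1 and 21ur.type2-2 (red diamonds) have a lower precursor and mature values of 0.15 and 0.88, of which only the second passed.

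PIR-1 libraries were made from RNAs with a 5′ triphosphate or monophosphate. Whether reads of csRNA rows in them had a cap was not tested. The csRNA row of 21ur.type2-1 rested on 16 to 54 reads there. Unlike in the CIP-TAP libraries it was not the most abundant, with ranks of 33 to 59 among type II csRNA rows and 52 to 163 among all csRNA rows. It held 3.30 and 6.54 normalised counts in the depleted libraries (16 and 27 reads), against 6.87 and 11.9 in the auxin control libraries (54 and 53 reads). Both depleted libraries lay below both control libraries, and the closest pair differed by -0.067 on the log2 scale. The log2 fold change of -0.91 (library-spread SE 0.58, edgeR quasi-likelihood test, adjusted p = 0.0199) passed the threshold. It did not pass without control replicate 2 (-0.50, adjusted p = 0.364) or without depleted replicate 1 (-0.47, adjusted p = 0.303). With TMM factors it was 0.23 (adjusted p = 0.584) and with DESeq2 0.16 (adjusted p = 0.847). It lay 0.47 to 0.52 above the median feature under every scaling, a distance that scaling hardly changes by construction. Its ratio to the sum of other type II csRNA was 0.161% and 0.371% in the depleted libraries and 0.290% and 0.577% in the auxin control libraries, which overlapped.

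Deletion of a single ATTF-6 binding site did not move 21ur.type2-1 past the test. In ΔPeak1 animals its mature form held 9599 and 8783 normalised counts, against 12000.0 and 10113 in the deletion control. Both ΔPeak1 libraries lay below both control libraries. Means were 9191 ± 577 in ΔPeak1 and 11057 ± 1334 in the control (SD, n = 2 each), a log2 fold change of -0.27 (SE 0.14, edgeR quasi-likelihood test over 6 libraries, adjusted p = 0.945, 0.149% of 31462 features called). In ΔPeak2 animals it held 8998 and 11787, on both sides of the lower control library, with a mean of 10393 ± 1972 (SD, n = 2). The log2 fold change was -0.089 (SE 0.23, adjusted p = 0.893, 0.308% of features called). It was 0.039 without deletion control replicate 1, 0.092 without ΔPeak2 replicate 1 and 0.032 with TMM factors. Differences between single libraries lay between -0.45 and -0.075 for ΔPeak1 and between -0.42 and 0.22 for ΔPeak2.

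The csRNA row and the share were as close. The csRNA row in PIR-1 libraries held 5.47 and 5.66 in ΔPeak1 and 6.05 and 6.76 in ΔPeak2, all between the 7.27 and 4.51 of the deletion control. The log2 fold changes were -0.10 (SE 0.32, adjusted p = 0.983) in ΔPeak1 and 0.10 (SE 0.33, adjusted p = 0.957) in ΔPeak2. No CIP-TAP library of these strains was analysed here. The share of 21ur.type2-1 in mature type II piRNA was 75.8% and 78.8% in ΔPeak1, 78.8% and 81.0% in ΔPeak2, and 79.5% and 78.0% in the deletion control. The log2 ratio to the other type II entries differed from the control by -0.12 in ΔPeak1 and by 0.10 in ΔPeak2. Both comparisons use the same 2 control libraries. None of the 10 next type II entries and none of the 753 other type II entries tested passed in either strain. Calls were rare over all features too, at 0.149% in ΔPeak1 and 0.308% in ΔPeak2, so these counts are near the general share.

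Across the 10 PIR-1 libraries, 12645 features with a mean of at least 10 were ranked by how closely their log2 normalised counts followed mature 21ur.type2-1. The closest were a pair of non-coding RNAs, WBGene00196507 and WBGene00199537, with identical values and so the same reads (Pearson r = 0.927, n = 10). They were followed by smy-5, a small nuclear RNA (0.924), the small nucleolar RNA WBGene00044943 (0.915) and miR-2214-3p (0.913). Of the 5 closest, all but miR-2214-3p carry the feature label contaminant in the deposited data. Spearman's rho of these 5 ran from 0.855 to 0.927. The closest type II entries were 21ur.type2-121 (0.839), 21ur.type2-22 (0.704) and 21ur.type2-1907 (0.696). Over the 47 other type II entries at that level the median r was -0.098, and the let-7a row had -0.737. The points share their experiment: miR-2214-3p held 2.67 to 25.2 in the 4 libraries of the depletion experiment and 124 to 171 in the 6 of the deletion experiment. Over those 6 alone, a choice made after seeing the data, the r of the 5 closest features ran from 0.463 to 0.664. These correlations are a description of the libraries.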

How the data were processed

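Small RNAs of whole adult worms were measured in 12 libraries (10 PIR-1, 2 CIP-TAP), grouped by genotype and treatment as labelled. The authors trimmed reads with Trim Galore, aligned them with Bowtie to the WormBase genome without mismatches, and assigned them to features. Reads at piRNA loci had to map uniquely, sense and with a 5′ T. The estimated counts the authors deposited are per-feature read numbers, some fractional (84.9% to 89.6% of values above 0 were whole), and were rounded for the tests. The deposited signal, called normalised count here, is that count divided by 1 constant per library, which the authors describe as mapped reads. It ran from 3992305 to 7857706 in PIR-1 libraries and was 3804460 in the depleted and 5040530 in the control CIP-TAP library. Summed counts exceed it, and what it counts was not settled.

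Features at a mean of 0.5 normalised counts or more were tested with edgeR 4.0.16 (quasi-likelihood, this constant as library size, Benjamini-Hochberg over all features, threshold 0.05), on 4 libraries for depletion and 6 for the deletions. SEs come from log2(normalised count + 0.5). TMM, DESeq2 1.42.0, other scalings and filters, a replicate block and leaving out each library were tried. The depletion test was first checked on simulated data with a fixed spread and few changed features, unlike these data. It recovered 99 of 100 changes of 4-fold and 54 of 100 changes of 2-fold there, so smaller changes can be missed.

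The entry, lists and rules were chosen with earlier results of these data known. Named by rule were both rows of 21ur.type2-1, the let-7a row, the 10 next type II piRNA rows and 5 next type II csRNA rows by mean level, the 5 features and 3 type II rows most like 21ur.type2-1, and 6 type I piRNAs. 21ur.type2-78 was named after its letters were compared.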

Additional observations from a re-analysis of the deposited data

Results flagged for a closer look

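The CIP-TAP libraries were made to capture capped RNA, and the piRNA row of 21ur.type2-1 in them was used above only for its rank and lead. It held 213 normalised counts in the depleted library (812 reads) and 42.1 in the auxin control library (212 reads), 5.07-fold higher after depletion (95% exact interval 4.36 to 5.93, counting error only, 1 library per group). It drew attention as a signal outside the main measurement that lay above its control. In the same pair of libraries the let-7a row was 2.86-fold higher in the depleted library, and summed miRNA was 90750 there and 53584 in the control library. The part of such uncapped RNA in this value was not tested.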

How the results depend on the processing

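Mature 21ur.type2-1 after depletion passed the test under 2 of 12 alternatives (TMM 1.29, DESeq2 1.21) and had the opposite sign when scaled to miRNA reads (-0.057). Leaving out 1 library gave -0.049 to 0.39. Its csRNA row in PIR-1 libraries changed sign with TMM (0.23) and DESeq2 (0.16), and ran from -1.45 to -0.47 without single libraries, passing in 2 of those 4. In ΔPeak2 the mature value was 0.032 with TMM, 0.047 with DESeq2 and -0.30 to 0.092 without single libraries, and the csRNA value was -0.081 scaled to miRNA reads and -0.18 to 0.50 without single libraries. In ΔPeak1 leaving out a library gave -0.39 to -0.14 for the mature form, -0.39 to 0.30 for csRNA and -0.24 to 0.0058 for the log2 ratio to other type II entries. None of the edgeR or DESeq2 log2 fold changes of 21ur.type2-1 in the deletion experiment passed under any alternative that gave an adjusted p, while the log2 ratio is a description. DESeq2 gave no adjusted p for the csRNA row in ΔPeak2. The CIP-TAP log2 difference of -2.16 was -1.67 scaled to summed counts and -2.92 scaled to miRNA reads. The cause of these changes was not tested.

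The depletion ratio of -1.93 was -0.66 with let-7a included and -1.54 over entries with a mean of at least 5, and the sum of other type II entries was 0.83 and 1.70 in place of 2.09. No csRNA row named let-7a was found, so that alternative gave no value. Among other type II entries, 1350 were called higher and 104 lower. With a mean of at least 5 these counts were 221 and 17, with fewer entries tested. With DESeq2 they were 1333 and 40. Of all features called, 18.9% were higher in the main test, 15.6% with a mean of at least 5 and 42.7% with DESeq2. Restricted to entries above the filter in the controls, 462 were higher. With that restriction the entries measured in both kinds of library numbered 263 in place of 551, with 230 higher in place of 484. Of the 5 features most like 21ur.type2-1, 0 were among the closest 5 by Spearman's rho and 1 with counts scaled to miRNA reads.

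Replicate numbers pair nothing in the labels. Deviations of equal numbers correlated at 0.321 in the depletion experiment and at -0.041 to -0.11 in the deletion experiment. With a replicate block, mature 21ur.type2-1 changed by 0.17 (edgeR adjusted p = 0.350) and its csRNA row by -0.95 (adjusted p = 0.00827) after depletion, and no call changed. The csRNA row in PIR-1 libraries is limited by 16 to 54 reads, and every CIP-TAP value by 1 library per group.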

Other observations

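The 2 control strains, which the design does not compare, differed in mature 21ur.type2-1. The auxin control libraries held 5150 and 6971 normalised counts and the deletion control libraries 12000.0 and 10113, with no overlap. They differ in genotype, auxin and experiment, which cannot be told apart. 21ur.type2-121 held 11.8 and 15.5 in the auxin control libraries and 112 and 77.1 in the deletion control libraries, while the let-7a row held 14682 and 12123 against 10517 and 8402.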
